A study of Rattus norvegicus with 6 samples.

Results

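The endocannabinoid receptor gene Cnr1 and 6 genes of endocannabinoid enzymes, Dagla, Daglb, Mgll, Abhd6, Napepld and Faah, were followed across the cell classes of the nucleus accumbens of the rat, a region of the ventral striatum. They were chosen by gene symbol and are 7 of the 25629 genes in the files, each symbol belonging to 1 gene (Cnr1 ENSRNOG00000008223, Dagla ENSRNOG00000027264, Daglb ENSRNOG00000001079, Mgll ENSRNOG00000014508, Abhd6 ENSRNOG00000008167, Napepld ENSRNOG00000011363, Faah ENSRNOG00000045949).

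Endocannabinoids are lipid messengers that are made on demand in postsynaptic cells and act backwards on presynaptic terminals, where the CB1 receptor, the product of Cnr1, lowers transmitter release. The diacylglycerol lipases Dagla and Daglb make 2-arachidonoylglycerol (2-AG), which Mgll (monoacylglycerol lipase) and, to a smaller extent, Abhd6 break down. Napepld makes N-acylethanolamines such as anandamide, and Faah hydrolyses them. In the striatum this signalling is known for long-term depression at excitatory synapses on spiny neurons and for its part in reward.

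The nuclei came from Sprague-Dawley rats of postnatal days 90 to 120 and were profiled by single-nucleus RNA sequencing, and every rat had self-administered heroin. Sessions ran for 7 days on a fixed ratio of 1 response and 4 days on a ratio of 3, followed by a progressive ratio test on day 12, with the ratio of 3 back in place on days 13 and 14. Saline, or naloxone, which blocks opioid receptors, was injected once the final session was over, 1 h before the brain was taken. Accumbens tissue of 6 male and 6 female rats (12 in all) went into 6 libraries, each with both sexes: saline replicates 1, 2 and 3 and naloxone replicates 4, 5 and 6. Rats without heroin were not analysed here. The labels do not say which rats went into which library, so p-values measure at most the spread between these libraries, not between rats.

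The 6 libraries held 8094 to 15020 barcodes and 55739350 to 76272798 unique molecular identifiers (UMIs, 1 for each captured RNA molecule), and 58960 of 64260 barcodes were used, with a median of 4209.5 to 6459 UMIs per nucleus. The labels speak of 44592 nuclei. Clusters were named from marker genes, with the 7 genes kept out of the clustering, and 17 of the named classes were analysed, each with at least 20 nuclei in at least 4 libraries. Glutamatergic neuron-like nuclei (150, with at least 20 in 5 libraries) and fibroblast-like nuclei (67) were left out of these classes. Of the 86 defining markers of the 17 classes, 76 were at 1 CPM or more in their class. Eya1 in Drd1-like spiny neurons, Cox6a2 in Pthlh Pvalb interneuron-like, Rxfp1 in Drd3 island neuron-like and Foxj1 in ependymal cell-like nuclei were under 1 CPM. The other 6 symbols were absent from the 25629 genes, so their classes were named without them. They were Tac1 (Drd1-like), Chat and Slc18a3 (cholinergic), Btbd11 (Pthlh Pvalb), Itgam (microglia-like) and Ccdc153 (ependymal). The markers of Drd1-like spiny neurons summed to 219 CPM in that class and to 2772 CPM in mural cell-like nuclei. Naloxone replicate 5 stood apart by a median mitochondrial share of 0.563% (0.153% to 0.345% in the other 5 libraries). The libraries shared 463 cell barcodes.

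The promoters of Mgll, Faah and Napepld are shown, 3 of the genes whose levels differ between glial classes. They run from 250 bases before to 50 after the annotated start (RefSeq, build GRCr8, strand of the gene), and 5 of the 7 genes had an entry. Capitals mark the GC box CCGCCC or its reverse complement GGGCGG, searched on both strands, which 33.1% of the 33469 promoters of this length hold. Mgll (chr4:122749186-122749485, plus strand) had 3 matches, Faah (chr5:134735347-134735646, minus strand) 1, and Napepld (chr4:14253010-14253309, plus strand) 8, a number reached by 78 promoters (0.233%).
Mgll: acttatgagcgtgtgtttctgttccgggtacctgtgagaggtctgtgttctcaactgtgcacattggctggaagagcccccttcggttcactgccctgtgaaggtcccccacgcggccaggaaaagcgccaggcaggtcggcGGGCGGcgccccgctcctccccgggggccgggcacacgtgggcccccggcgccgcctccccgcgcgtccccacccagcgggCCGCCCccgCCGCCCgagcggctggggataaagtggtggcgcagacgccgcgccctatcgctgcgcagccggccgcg
Faah: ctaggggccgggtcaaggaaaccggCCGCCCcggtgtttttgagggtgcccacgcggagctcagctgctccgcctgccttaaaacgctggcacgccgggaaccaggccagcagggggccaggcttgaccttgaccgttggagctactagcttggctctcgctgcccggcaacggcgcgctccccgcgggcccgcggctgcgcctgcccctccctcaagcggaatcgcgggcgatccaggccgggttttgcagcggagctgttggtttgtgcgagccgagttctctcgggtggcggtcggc
Napepld: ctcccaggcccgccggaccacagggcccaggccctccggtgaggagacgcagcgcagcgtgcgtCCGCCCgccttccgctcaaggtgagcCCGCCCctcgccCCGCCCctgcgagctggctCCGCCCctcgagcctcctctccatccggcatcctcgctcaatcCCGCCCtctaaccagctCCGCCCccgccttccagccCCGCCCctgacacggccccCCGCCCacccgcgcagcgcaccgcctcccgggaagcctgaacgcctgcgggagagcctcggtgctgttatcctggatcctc

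The 3 promoters were rich in G and C, at 72.3% for Mgll, 69.7% for Faah and 74.7% for Napepld, against a median of 51.7% over all promoters. The promoters with an entry that are not shown held fewer G and C, at 59.0% for Daglb and 60.3% for Abhd6. Daglb, which is high in microglia-like nuclei, had 0 matches to the GC box and Abhd6 had 1. Neither SOX core, ACAAAG or ACAATG on either strand, lay in any of the 5 promoters, while 18.8% and 13.2% of all promoters held them.

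Levels are given as CPM, a gene's UMIs scaled to a common total over the UMIs of the class in a library, and are compared across classes within a gene only. Each gene had its own profile. Cnr1 was highest in Pthlh Pvalb interneuron-like nuclei, Dagla and Daglb in microglia-like, Mgll in astrocyte-like, Abhd6 in eccentric spiny neuron-like, Napepld in oligodendrocyte-like and Faah in committed oligodendrocyte precursor-like nuclei. The class at the top was the same in 6 of 6 libraries for Cnr1, Daglb, Mgll, Napepld and Abhd6, in 4 for Dagla and in 3 for Faah. When nuclei were instead gated 1 by 1 on the markers, 25 of the 119 levels moved by over 1.5 times, and the gated values are given where they touch a result.

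**Figure D1:**
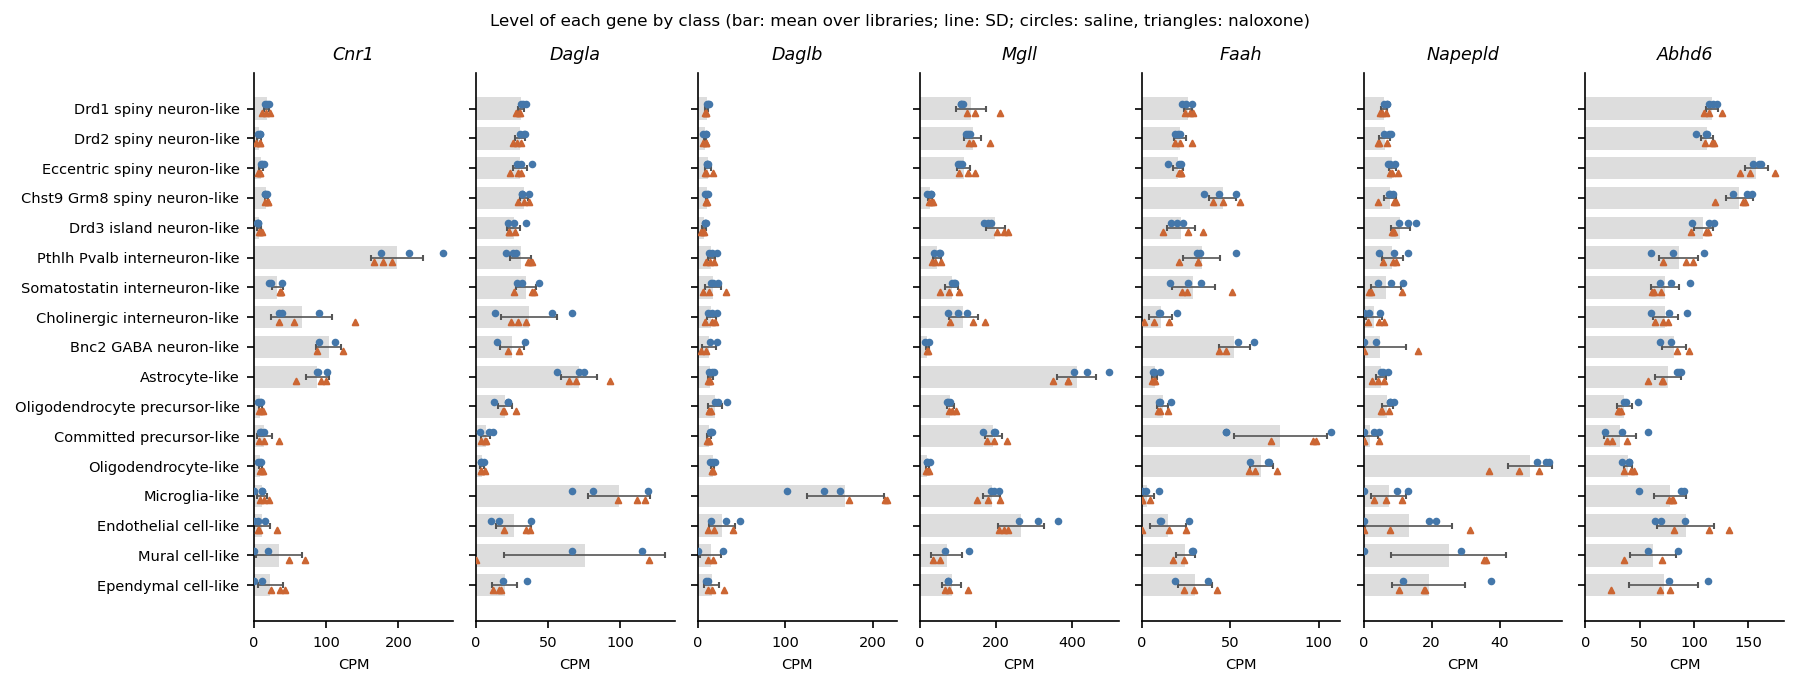
Level of each of the 7 genes (horizontal axes, CPM, a separate scale for each gene) in the 17 classes (vertical axis), with the mean over libraries as a bar, the SD as a line, saline libraries as circles and naloxone libraries as triangles. Daglb stands out in microglia-like nuclei at 169 CPM and Napepld in oligodendrocyte-like nuclei at 48.9 CPM, whereas Abhd6 is spread over all classes.

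Cnr1, the CB1 receptor gene, reached 262, 175 and 215 CPM in the saline libraries and 166, 191 and 179 CPM in the naloxone libraries in Pthlh Pvalb interneuron-like nuclei (mean 198 ± 35.7, SD, n = 6). These are GABAergic interneurons of the kind that includes the fast-spiking cells. All 6 libraries lay far above the Drd1-like spiny neurons, which had 15.8, 18.3 and 20.7 CPM after saline and 16.2, 21.7 and 11.7 CPM after naloxone. Bnc2 GABA neuron-like nuclei followed at 103 ± 17.3 CPM (n = 4) and astrocyte-like nuclei at 87.5 ± 15.8 CPM (n = 6). Cholinergic interneuron-like nuclei, at 65.9 ± 41.7 CPM, varied most between libraries, from 35.1 to 140 CPM. Drd2-like spiny neurons were at the bottom with 5.85, 8.08 and 7.94 CPM after saline and 8.16, 8.70 and 3.02 CPM after naloxone. With gated nuclei Cnr1 was still highest in the Pthlh Pvalb class at 161 CPM, but the Bnc2 GABA class was at 67.4 CPM and the Drd1-like level was 30.1 against 8.86 CPM in Drd2-like nuclei.

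The step from Drd1-like to Drd2-like spiny neurons was 2.50-fold in Cnr1 CPM and had the same sign in 6 of 6 libraries. In an edgeR fit over all classes with library as a block it was 1.30 on the log2 scale (SE 0.155, edgeR adjusted p = 3.03e-11). That fit counts the class sums of a library as separate samples and takes the spread from all classes together. Its p-values, here and for the other steps between classes, therefore do not rest on the spread of the 6 libraries alone. Cnr1 was the 1 gene of the 7 called between Drd1-like and Drd2-like spiny neurons, where 12.1% of all genes were called. By direction alone it was also 1 of 7, against 24.3% of genes that had 1 direction in every library. Within each class the level again differed by cluster, with 10.1 and 2.69 CPM in the 2 Drd2-like clusters, and 22.3 CPM in the Ebf1-led against 11.6 CPM in the Plcz1-led Drd1-like cluster. Each of these cluster steps held in 6 of 6 libraries (exact sign-flip permutation p = 0.031, the smallest 6 libraries allow, adjusted over 56 cluster pairs 0.103). The Drd2-like mean of 6.96 CPM lay below the oligodendrocyte-like mean of 8.97 CPM. The part of free RNA in such low levels was not tested.

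Astrocyte-like nuclei carried Cnr1 at 87.3, 88.2 and 101 CPM after saline and 92.1, 99.1 and 57.5 CPM after naloxone. Naloxone replicate 6 was the low one, and the other 5 libraries lay close together. This was 9.76 times the oligodendrocyte-like level (edgeR log2 3.17, adjusted p = 1.29e-32). The class was made of 2 clusters, an Slc1a2-led one at 108 ± 23.2 CPM and a Lama2-led one at 30.7 ± 4.61 CPM, the first higher in 6 of 6 libraries.

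Dagla, the main 2-AG synthase of the brain, was highest in microglia-like nuclei at 119, 66.7 and 81.4 CPM after saline and 117, 111 and 98.2 CPM after naloxone (mean 99.02 ± 21.2). The mural cell-like mean of 75.4 ± 55.7 CPM rested on 25 UMIs in 4 libraries, and that class came first in saline replicate 3 and naloxone replicate 4. Astrocyte-like nuclei followed at 71.5 ± 12.4 CPM, between 56.2 and 93.1 CPM in the 6 libraries. The neuronal classes formed 1 band from 24.9 to 36.8 CPM, and no neighbours within it were separated by the edgeR fit. Oligodendrocyte-like nuclei were lowest at 4.24 ± 1.36 CPM. The top class depended on the setting, with astrocyte-like nuclei at 68.7 and microglia-like at 66.0 CPM after gating, and mural cell-like nuclei first without naloxone replicate 5 (100.5 against 96.6 CPM) and by the mean over single nuclei (113 against 99.6).

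Astrocyte-like nuclei lay above cholinergic interneuron-like nuclei, the top of the band of neurons, by a Dagla CPM ratio of 1.94. The edgeR log2 step was 0.80 (SE 0.164, edgeR adjusted p = 1.4e-05). The astrocyte-like level was 16.9 times the oligodendrocyte-like one in CPM (edgeR log2 4.02, adjusted p = 7.98e-42), and the oligodendrocyte precursor-like level 4.82 times (edgeR log2 2.29, adjusted p = 7.82e-15).

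Daglb, the second diacylglycerol lipase, was high in 1 class. Microglia-like nuclei held 144, 102 and 163 CPM after saline and 216, 214 and 173 CPM after naloxone (mean 169 ± 43.5). The next class, endothelial cell-like, was at 27.7 ± 14.7 CPM, with all its libraries below those of the microglia-like nuclei. The edgeR log2 step between these classes was 2.66 (SE 0.26, adjusted p = 6.39e-16). The other 15 classes lay between 7.14 and 19.5 CPM, with oligodendrocyte precursor-like nuclei at the upper end and Drd3 island neuron-like nuclei at the lower. Gated microglia-like nuclei had 85.6 ± 33.4 CPM, still the highest class, with endothelial cell-like nuclei at 28.2 ± 11.8 CPM.

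Mgll, the main 2-AG hydrolase, stood at 497, 440 and 405 CPM after saline and 390, 389 and 349 CPM after naloxone in astrocyte-like nuclei (mean 412 ± 50.7). Endothelial cell-like nuclei followed at 266 ± 59.9 CPM, a CPM ratio of 1.55 and an edgeR log2 step of 0.91 (SE 0.131, edgeR adjusted p = 2.71e-09). Drd3 island neuron-like nuclei had 199 ± 24.4 CPM, more than Drd2-like (139 ± 22.6) and Drd1-like spiny neurons (135 ± 39.9). Chst9 Grm8 spiny neuron-like nuclei had only 27.9 ± 4.95 CPM and Pthlh Pvalb interneuron-like nuclei 44.9 ± 9.95 CPM, so the class with the highest Cnr1 was among the 4 lowest for Mgll. Oligodendrocyte-like and Bnc2 GABA neuron-like nuclei closed the order at 20.4 ± 4.35 and 20.1 ± 4.47 CPM (the latter n = 4). With gated nuclei these low levels were 42.4 CPM in the Chst9 Grm8, 68.8 CPM in the Pthlh Pvalb and 54.3 CPM in the Bnc2 GABA class, and 19.2 CPM in oligodendrocyte-like nuclei.

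The ratio of Mgll CPM was 20.2 between astrocyte-like and oligodendrocyte-like nuclei (edgeR log2 4.26, SE 0.11, adjusted p = 6.38e-59) and 0.206 between Chst9 Grm8 and Drd1-like spiny neurons (edgeR log2 -2.47, SE 0.106, adjusted p = 1.37e-39). Drd1-like and Drd2-like spiny neurons were not separated, with an edgeR log2 difference of -0.07 (SE 0.0787, adjusted p = 0.707). The Slc1a2-led astrocyte-like cluster had 506 and the Lama2-led one 144 CPM, and the Plcz1-led Drd1-like cluster 196 against 92.9 CPM in the Ebf1-led one. Both of these steps held in 6 of 6 libraries (exact sign-flip permutation p = 0.031, adjusted 0.103).

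**Figure D2:**
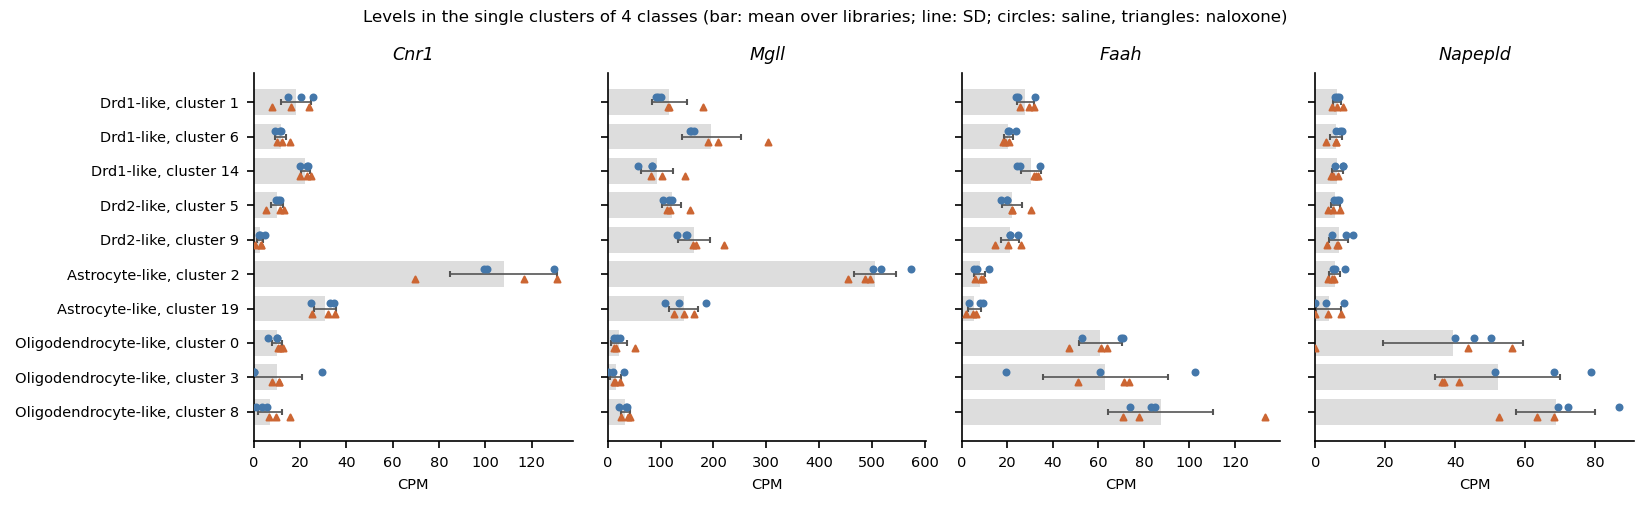
Levels of Cnr1, Mgll, Faah and Napepld (horizontal axes, CPM, a separate scale for each gene) in the single clusters of 4 classes (vertical axis), with means as bars, SDs as lines, saline libraries as circles and naloxone libraries as triangles. Cnr1 and Mgll are both higher in astrocyte-like cluster 2 (Slc1a2-led, 108 and 506 CPM) than in cluster 19 (Lama2-led, 30.7 and 144 CPM).

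Abhd6, a serine hydrolase that also cleaves 2-AG, was found in all classes. It was highest in the spiny classes, with 162, 155 and 160 CPM after saline and 143, 175 and 152 CPM after naloxone in eccentric spiny neuron-like nuclei (mean 158 ± 10.7). Chst9 Grm8 spiny neuron-like nuclei had 142 ± 12.5 CPM, Drd1-like 117 ± 5.80 and Drd2-like 112 ± 5.74 CPM. Drd3 island neuron-like nuclei, a class not named as spiny, followed at 108 ± 8.69 CPM. With gated nuclei the eccentric (158 CPM) and Chst9 Grm8 classes (137 CPM) were still highest. Ependymal cell-like nuclei, at 72.0 CPM when clustered, then had 117 CPM, above Drd1-like (113 CPM) and Drd2-like nuclei (110 CPM). The lowest 3 classes were those of the oligodendrocyte lineage, between 32.2 and 39.2 CPM. Abhd6 thus ran against Mgll in Chst9 Grm8 spiny neuron-like nuclei, near the top for one hydrolase and near the bottom for the other. The eccentric level exceeded the Chst9 Grm8 level by a CPM ratio of 1.11 and an edgeR log2 step of 0.23 (SE 0.073, edgeR adjusted p = 0.00907).

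Napepld, the enzyme that releases anandamide and related amides from membrane phospholipid, was found mainly in oligodendrocyte-like nuclei, at 51.0, 53.5 and 54.6 CPM after saline and 51.6, 36.9 and 45.8 CPM after naloxone (mean 48.9 ± 6.60). Naloxone replicate 5 was the lowest of the 6. The next class, mural cell-like, had 25.0 ± 16.999 CPM on 8 UMIs in 4 libraries. In these 4 libraries the CPM ratio was 1.97, and the edgeR fit gave a log2 step of 1.43 (SE 0.476, edgeR adjusted p = 0.0141). Neurons lay between 3.08 and 10.8 CPM and astrocyte-like nuclei at 5.14 ± 1.58 CPM. Committed oligodendrocyte precursor-like nuclei, the stage before oligodendrocytes, had 5 Napepld UMIs in all (2.02 ± 2.29 CPM).

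Faah, which degrades anandamide, was highest in committed oligodendrocyte precursor-like nuclei at 47.5, 47.4 and 107 CPM after saline and 97.0, 73.1 and 98.1 CPM after naloxone (mean 78.3 ± 26.4). Oligodendrocyte-like nuclei, at 61.1, 71.9 and 71.2 CPM after saline and 60.8, 76.4 and 64.1 CPM after naloxone, were higher than the committed precursors in 3 of the 6 libraries, so these 2 classes had no fixed order. Oligodendrocyte precursor-like nuclei had 11.9 ± 2.97 CPM, 0.176 times the oligodendrocyte-like level (edgeR log2 -2.50, SE 0.167, adjusted p = 5.05e-26). Among neurons Bnc2 GABA neuron-like (52.2 ± 8.79 CPM, n = 4) and Chst9 Grm8 spiny neuron-like nuclei (45.7 ± 7.70 CPM) were highest, the latter 1.74 times the Drd1-like level of 26.2 ± 2.35 CPM (edgeR log2 0.60, SE 0.0985, adjusted p = 1.82e-07). Microglia-like nuclei had 6 Faah UMIs in all (2.86 CPM, and 16.7 CPM with gated nuclei).

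Faah and Napepld shared a high level in oligodendrocyte-like nuclei and differed in the clustered committed precursors. With gated nuclei this difference was mostly gone, since the 985 gated committed precursors, 277 of them also in the clustered class, had 40.02 ± 7.00 CPM of Faah and 18.3 ± 4.33 CPM of Napepld (oligodendrocyte-like nuclei 73.7 and 46.5 CPM). Faah was then highest in oligodendrocyte-like nuclei, as at resolution 0.5 of the clustering (69.3 against 59.7 CPM in the committed precursors), and Napepld was second highest in the committed precursors. Within the oligodendrocyte-like class the Rasgrp3-led cluster had 87.4 CPM of Faah and 68.7 CPM of Napepld. The Opalin-led one had 61.0 and 39.2 CPM, lower in 6 of 6 libraries (exact sign-flip permutation p = 0.031 each, adjusted 0.103). In naloxone replicate 5 this cluster held only 63 nuclei, with 0 CPM of Napepld. The Gpd1-led cluster lay between at 63.2 and 52.0 CPM, above the Rasgrp3-led one in 2 and 1 of 6 libraries.

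Over the 6 pairs of classes compared for all 7 genes, 42 tests, 23 differences had 1 direction in all 6 libraries. None passed the exact sign-flip permutation test after adjustment, because the smallest p of 0.031 becomes 0.0571 over the 42 tests, and of the 112 steps between neighbours in the order none did either (lowest adjusted p 0.344). The edgeR fit over all classes, chosen after these results were seen, called 22 of the 42 pairs and 19 of the 112 neighbour steps. Neighbours were taken from the order of the same mean CPM, so the direction of each step in CPM was set beforehand. The p-values of neighbour steps, also those given above for single genes, therefore describe the order and are no independent test of it. No share over all genes is given for these steps. Between astrocyte-like and oligodendrocyte-like nuclei 6 of 7 genes were called, where 64.9% of all genes were (6 of 7 in 1 direction, background 58.6%). For oligodendrocyte precursor-like against oligodendrocyte-like nuclei the count was 4 of 7, with 62.9% of all genes (4 of 7 in 1 direction, background 55.9%). These shares are near the background.

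Of the 7 genes, 6 were called between astrocyte-like nuclei and Drd1-like spiny neurons, with 74.4% of all genes (6 of 7 in 1 direction, background 73.1%). In Pthlh Pvalb interneuron-like against Drd1-like nuclei 3 of 7 were called (Cnr1, Mgll and Abhd6), with 50.2% of all genes (3 of 7 in 1 direction, background 49.2%). In Chst9 Grm8 against Drd1-like spiny neurons 2 of 7 were called (Mgll and Faah), with 44.9% of all genes (3 of 7 in 1 direction, background 53.5%). TMM scaling, which the edgeR fit uses, shifted the log2 ratio to Drd1-like nuclei by 0.37 for astrocyte-like, 0.28 for Pthlh Pvalb interneuron-like and 0.21 for Chst9 Grm8 spiny neuron-like nuclei relative to CPM. With it, Abhd6 was no longer separated between Chst9 Grm8 and Drd1-like nuclei (CPM ratio 1.21, edgeR log2 0.07, adjusted p = 0.419), nor Daglb between astrocyte-like and Drd1-like nuclei (ratio 1.39, edgeR log2 0.08, adjusted p = 0.661). Mgll in microglia-like nuclei, above Drd2-like spiny neurons in CPM, was below them on this scale (edgeR log2 -0.29, SE 0.121, adjusted p = 0.0287).

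Shares of nuclei with a UMI depend on depth, whose median was 1268 UMIs in microglia-like, 1620 in oligodendrocyte-like, 2445 in astrocyte-like and 9059 in Drd1-like nuclei. With every nucleus thinned to 1000 UMIs, and 31.6% of microglia-like and 16.2% of oligodendrocyte-like nuclei left out as shallower, the class with the highest share was the one with the highest CPM for 7 of 7 genes. Cnr1 was then found in 14.5 ± 2.77% of Pthlh Pvalb interneuron-like, 8.34 ± 1.75% of astrocyte-like, 1.79 ± 0.458% of Drd1-like, 1.16 ± 0.616% of microglia-like and 0.862 ± 0.216% of oligodendrocyte-like nuclei (unthinned 57.2%, 18.2%, 12.2%, 1.45% and 1.55%). Free RNA gives UMIs in nuclei that do not transcribe a gene, and the shares of about 1% are not read as expression. Drd2-like nuclei had a thinned Cnr1 share of 0.519 ± 0.368% (unthinned 5.01%), which is not read as expression either. Daglb was found in 14.9 ± 4.90% of thinned microglia-like nuclei and in at most 2.93% in any other class (unthinned 20.3% in microglia-like nuclei).

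For Mgll the thinned share was 30.2 ± 3.14% in astrocyte-like and 1.92 ± 0.446% in oligodendrocyte-like nuclei (unthinned 53.1% and 3.37%). Napepld had 4.88 ± 0.841% in oligodendrocyte-like and 0.491 ± 0.221% in astrocyte-like nuclei (unthinned 8.17% and 1.31%). Faah had 5.77 ± 0.601% in oligodendrocyte-like and 0.295 ± 0.463% in microglia-like nuclei (unthinned 10.2% and 0.441%).

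Genes whose class profile was most like that of each member were found by Pearson's r of log2(CPM + 1) over the 17 classes among 12623 genes, as a description over classes that share libraries. For Daglb they were Gna15 (r = 0.948), Fyb1 (0.947) and Tlr7 (0.945), all 3 known from immune cells. For Dagla they were Tbc1d2b (0.943), Gsdme (0.915) and Pdk1 (0.896), and for Cnr1 Dlat (0.893), Snx12 (0.820) and Eps15l1 (0.815). Napepld was closest to Cbx7 (0.850), Pole3 (0.849) and Phf3 (0.842), and Faah to Mapk8ip1 (0.860), Sh3gl3 (0.858) and Tmeff2 (0.851). Abhd6 was closest to Prelid3a (0.881), Palm (0.880) and Celf2 (0.877), and Mgll, with the weakest likeness, to Irak2 (0.737), Gsk3b (0.732) and Papss2 (0.715). Among the 7 genes themselves the strongest relations were negative, between Faah and Dagla (r = -0.730), Daglb (-0.612) and Mgll (-0.605). Dagla and Abhd6 had the highest positive r, 0.489, and Faah and Napepld only 0.164.

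Naloxone was compared with saline to ask whether the genes differ 1 h after the opioid receptors are blocked in rats with the same heroin history. Over all nuclei no member was called by edgeR or by DESeq2 (called: adjusted p under 0.05, as for 0.0864% of all genes by edgeR), and 0 of 7 had an unadjusted edgeR p under 0.05. Cnr1 had 31.7, 29.1 and 33.7 CPM after saline and 40.6, 33.6 and 33.0 CPM after naloxone (log2 0.17, SE 0.0915, edgeR adjusted p = 0.42). Its groups overlapped. Mgll had 105, 108 and 99.2 CPM after saline and 93.7, 152 and 107 CPM after naloxone, with naloxone replicate 5 alone high (log2 0.16, SE 0.152, edgeR adjusted p = 0.655).

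By class, 0 of 82 tests of the members were called by edgeR. DESeq2 called 1, and the share of all genes it called is not given here. The share of all genes that edgeR called was 0.228% in Drd1-like, 0.42% in Drd2-like, 0.161% in Chst9 Grm8 and 0.0732% in eccentric spiny neuron-like nuclei. It was 0.011% in Drd3 island neuron-like, 0% in cholinergic, 0.0139% in somatostatin and 0.0877% in Pthlh Pvalb interneuron-like nuclei. In glia and vessels it was 0.917% for astrocyte-like nuclei and 0.225% for microglia-like ones, 0% for endothelial cell-like ones and, along the oligodendrocyte lineage, 0.12% for precursor-like, 0% for committed precursor-like and 0.845% for mature nuclei. An unadjusted edgeR p under 0.05 was found for 12 of the 82 (6 higher, 6 lower), with 9.31% of all tests of the 14 classes. The groups did not overlap in 15 of the 82, 4 higher and 11 lower, with 15.1% of all tests. These counts do not show that the members did not differ. In committed oligodendrocyte precursor-like and endothelial cell-like nuclei, edgeR also called 0% of the genes simulated with a log2 difference of 1. The lack of calls in these classes, for members and for all genes, therefore decides nothing.

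**Figure D3:**
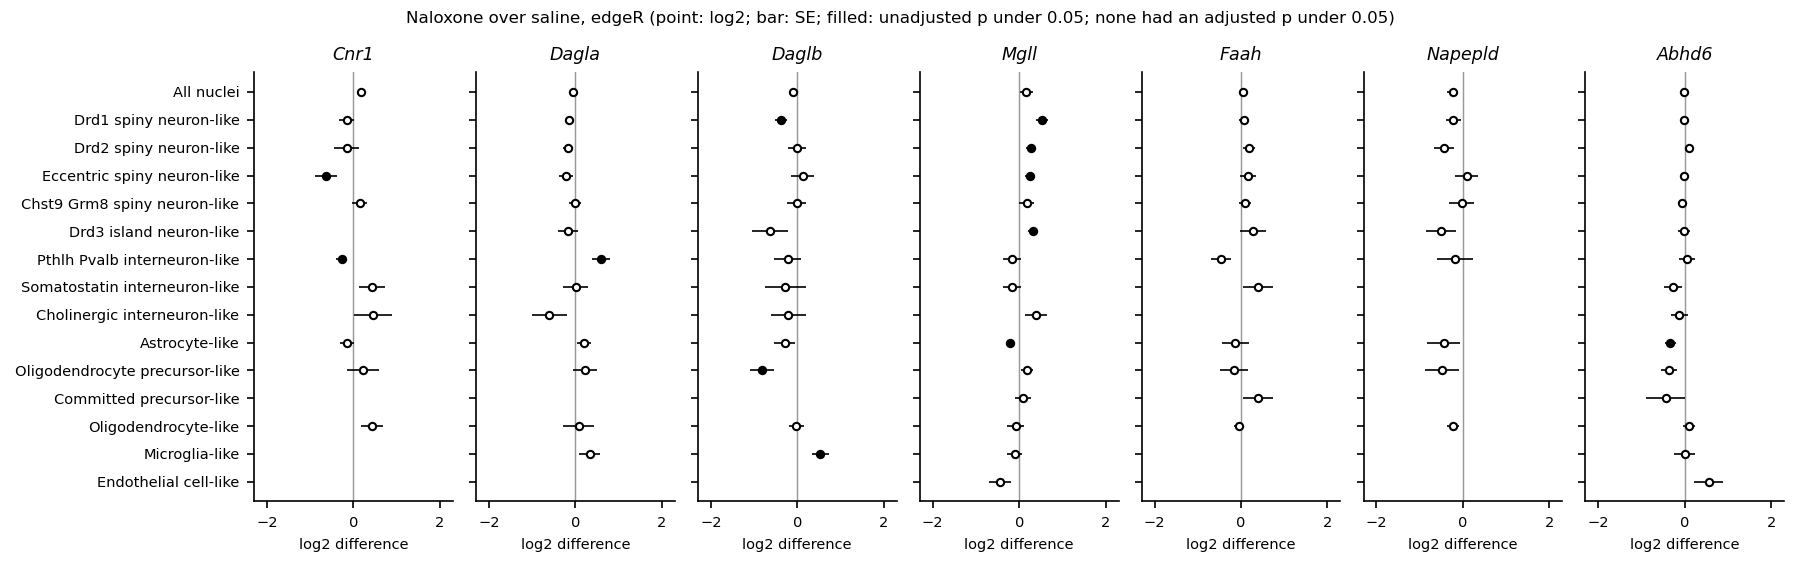
Log2 difference of naloxone over saline for each of the 7 genes (horizontal axes) over all nuclei and in 14 classes (vertical axis), as edgeR estimates with SE bars, filled where the unadjusted p was under 0.05. The 12 filled class points include 5 of Mgll, 4 above 0 and 1 below, and none had an adjusted p under 0.05.

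The receptor gene Cnr1 had 9.65, 10.97 and 13.5 CPM after saline and 7.84, 8.71 and 5.58 CPM after naloxone in eccentric spiny neuron-like nuclei. The groups did not overlap, and the log2 difference was -0.64 (SE 0.257, edgeR adjusted p = 0.465). It turned to 0.48 (edgeR adjusted p = 0.741) when nuclei were gated 1 by 1 on the markers. In Pthlh Pvalb interneuron-like nuclei, where Cnr1 is highest, the log2 difference was -0.27 (SE 0.128, edgeR adjusted p = 0.599), and the groups overlapped.

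Of the synthases, Dagla in Pthlh Pvalb interneuron-like nuclei had 20.7, 25.7 and 27.5 CPM after saline and 38.6, 37.4 and 35.9 CPM after naloxone. All naloxone libraries lay above all saline libraries (log2 0.59, SE 0.207, edgeR adjusted p = 0.453). Daglb in microglia-like nuclei had log2 0.53 (SE 0.197, edgeR adjusted p = 0.47), with 102 to 163 CPM after saline and 173 to 216 CPM after naloxone. In oligodendrocyte precursor-like nuclei Daglb had 33.0, 19.2 and 23.4 CPM after saline and 12.8, 12.9 and 15.6 CPM after naloxone (log2 -0.81, SE 0.277, edgeR adjusted p = 0.491). Its groups were also apart in Drd1-like spiny neurons (log2 -0.38, SE 0.133, edgeR adjusted p = 0.267).

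Mgll had the lowest adjusted p of the 82, in Drd1-like spiny neurons, with 113, 109 and 108 CPM after saline and 125, 211 and 145 CPM after naloxone. The saline libraries lay close together, all naloxone libraries above them, and naloxone replicate 5 far above the rest. The log2 difference was 0.53 (SE 0.134, edgeR unadjusted p = 0.00173, adjusted 0.147), and 0.33 without naloxone replicate 5 (edgeR adjusted p = 0.0859). It passed the threshold with DESeq2 (log2 0.53, adjusted p = 0.00787) and with no filter on low counts (edgeR log2 0.53, adjusted p = 0.000273). The share of all genes called under these settings is not given here, so they are not read as support. With sums by sex and sex as a covariate it also passed (edgeR log2 0.61, adjusted p = 0.0357). That fit counts the female and male sums of a library as separate samples, so its p-value overstates the number of replicates. With nuclei gated on markers the log2 difference was 0.37 (edgeR adjusted p = 0.668).

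The Drd2-like, Chst9 Grm8 and eccentric spiny classes and the Drd3 island class, which was not named as spiny, had Mgll estimates above 0, none called. Drd2-like nuclei had 127, 132 and 122 CPM after saline and 130, 184 and 140 CPM after naloxone, overlapping by 1 library (log2 0.27, SE 0.103, edgeR adjusted p = 0.288, and 0.13 without naloxone replicate 5, adjusted 0.52). Drd3 island neuron-like nuclei had 178, 188 and 169 against 222, 230 and 204 CPM, with no overlap and no library apart (log2 0.31, SE 0.111, edgeR adjusted p = 0.564). In Chst9 Grm8 spiny neuron-like nuclei the groups overlapped, with 29.4, 30.4 and 19.5 against 25.5, 34.0 and 28.5 CPM (log2 0.17, SE 0.168, edgeR adjusted p = 0.806). Eccentric spiny neuron-like nuclei, whose groups also overlapped, had log2 0.25 (SE 0.109, edgeR adjusted p = 0.486), and 0.16 without naloxone replicate 5 (adjusted 0.77). In the 3 Drd1-like clusters fitted alone the log2 differences were 0.50, 0.56 and 0.54 (edgeR adjusted p 0.109, 0.108 and 0.30), and 0 of 65 tests over 11 single clusters were called, with 0.282% of all tests.

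In astrocyte-like nuclei Mgll went the other way, with 497, 440 and 405 CPM after saline and 390, 389 and 349 CPM after naloxone and no overlap (log2 -0.22, SE 0.0966, edgeR adjusted p = 0.418). Abhd6 was also lower in every naloxone library there, with 88.6, 85.8 and 84.9 against 71.8, 57.7 and 70.1 CPM (log2 -0.33, SE 0.125, edgeR adjusted p = 0.301). The Slc1a2-led cluster, which has the higher Mgll level, made up 79.3%, 83.4% and 73.1% of astrocyte-like nuclei after saline and 71.2%, 70.1% and 67.5% after naloxone. Within the clusters the Mgll difference was -0.11 (Slc1a2-led, edgeR adjusted p = 0.756) and 0.07 (Lama2-led, edgeR adjusted p = 0.962). For Abhd6 it was -0.37 in the Slc1a2-led (edgeR unadjusted p = 0.011, adjusted 0.304) and -0.11 in the Lama2-led cluster (edgeR adjusted p = 0.95). The part of the cluster shares in the class values of Mgll and Abhd6 was not tested. The oligodendrocyte-like class changed its makeup more, the Gpd1-led cluster holding 2.07% to 3.29% of it after saline and 40.8%, 88.4% and 42.9% after naloxone. In that class Napepld, Faah and the other 5 genes had no unadjusted edgeR p under 0.05, and the part of the cluster shares in their values was not tested.

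**Figure D4:**
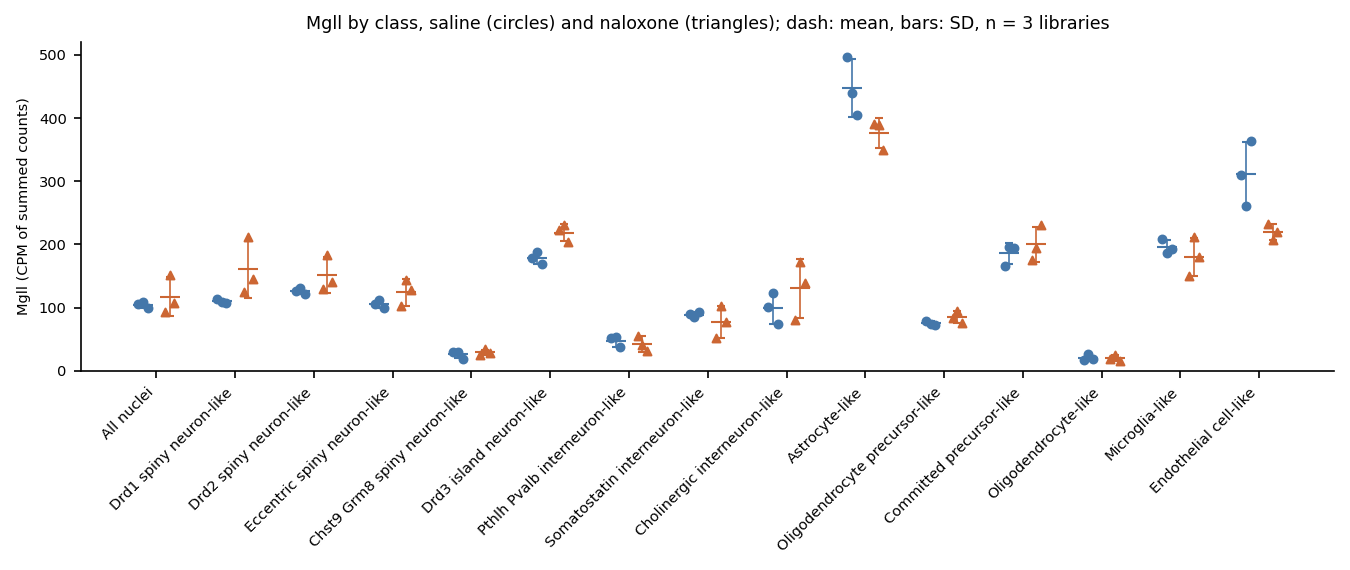
Mgll level (vertical axis, CPM) over all nuclei and in 14 classes (horizontal axis) in the 3 saline libraries (circles) and the 3 naloxone libraries (triangles), with the mean as a dash and the SD as a bar. The naloxone libraries lie higher in Drd1-like nuclei (125 to 211 against 108 to 113 CPM) and lower in astrocyte-like nuclei (349 to 390 against 405 to 497 CPM).

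The difference of the naloxone response between classes was tested for 3 pairs of classes, 21 tests over the 7 genes. For Mgll the response in Drd2-like was smaller than in Drd1-like spiny neurons by 0.27 on the log2 scale (log2 -0.27, SE 0.0633, edgeR adjusted p = 0.0298), 1 of 7 members called where 0.969% of all genes were. Without naloxone replicate 5 it was -0.21 (edgeR adjusted p = 0.281), and it also missed the threshold without saline replicate 1 (0.0507), 2 (0.188) or 3 (0.0695) or naloxone replicate 6 (0.0992), while without naloxone replicate 4 the adjusted p was 0.00625. Between Chst9 Grm8 and Drd1-like spiny neurons 0 of 7 were called by edgeR, with 0.0522% of all genes, and the Mgll difference was -0.36 (SE 0.153, edgeR adjusted p = 0.646). Between astrocyte-like and oligodendrocyte-like nuclei 0 of 7 were called by edgeR, with 0.224% of all genes. Unadjusted edgeR p under 0.05 was found there for Cnr1 (log2 -0.57, SE 0.234, adjusted p = 0.535) and Abhd6 (log2 -0.42, SE 0.164, adjusted p = 0.514).

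Female and male nuclei of the same libraries were compared, the sex of a nucleus being read from Xist and Y-linked UMIs. None of 69 tests of the members in 12 fits was called by edgeR, with 0.111% of all tests. An unadjusted edgeR p under 0.05 was found for 6, a count whose share over all genes is not given and which is not read as a result. The lowest adjusted p was for Daglb over all nuclei, at 13.9 ± 1.35 CPM in female and 11.8 ± 0.917 CPM in male nuclei, higher in female nuclei in 6 of 6 libraries (log2 0.20, SE 0.0729, edgeR adjusted p = 0.504). Cnr1 in Drd1-like spiny neurons was lower in female nuclei in 6 of 6 libraries, at 15.2 ± 4.41 against 18.6 ± 3.504 CPM (log2 -0.31, SE 0.103, edgeR adjusted p = 0.913). How many of all genes have 1 direction in 6 of 6 libraries between the sexes is not given here.

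Other genes of the pathway were taken from 5 lists of 38 genes, covering further receptors, the routes of 2-AG and anandamide, carriers and receptor partners, and Gq-coupled receptors that drive 2-AG synthesis. Of these 37 could be tested in at least 1 fit, and 0 of 281 tests over the 15 fits were called by edgeR, while 42 had an unadjusted p under 0.05, with 9.88% of all tests of these fits (lowest adjusted p 0.0939, in Drd2-like spiny neurons). The median log2 difference in Drd1-like nuclei was 0.07 for the 6 Gq-coupled receptors and -0.0022 for the 7 tested genes of the 2-AG route, against -0.16 for the 7 members and 0.00019 for all genes.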

How the data were processed

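Single-nucleus libraries from 3 saline and 3 naloxone groups of rats were analysed, grouped by the treatment in the labels. The deposited values are raw counts of UMIs for each gene and barcode and were made with Cell Ranger 9.0.1 on build mRatBN7.2, per the submitters' processing notes, which also name Seurat 5.2.1 and R 4.4.0. Whether reads in introns were counted is not given in the sources used here.

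A nucleus had to have 500 genes or more and no more than 5% mitochondrial UMIs (61609 passed), and 2649 doublets (4.30%) called in each library were removed. Clustering used 3000 variable genes without the members and pathway lists, 40 principal components and the Leiden method at resolution 1.0 (Python 3.11.15, leidenalg 0.10.2). Marker lists named 27 of 52 clusters (43557 nuclei), with 12 mixed (5011 nuclei) and 13 unnamed (10392 nuclei), by score thresholds set after the clusters were seen. The members and lists were chosen with earlier results of these data known. Other names may come from other rules.

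UMI counts were summed per library and class with at least 20 nuclei. The naloxone response was tested across all genes with edgeR 4.0.16 (quasi-likelihood F-test, TMM, filterByExpr, Benjamini-Hochberg adjustment within each fit, threshold 0.05, R 4.3.3), the class by treatment and sex terms with library as a block. A member not tested in a class did not pass the filter on low counts. Classes were compared by exact two-sided sign-flip permutation tests over libraries, which cannot go below 0.031 with 6 libraries, 0.0625 with 5 and 0.125 with 4. Simulated counts were used to try the edgeR naloxone fits, and 200 genes in each fit were given a log2 difference of 1. Of these genes, 0% were called in committed oligodendrocyte precursor-like and endothelial cell-like nuclei. The share was 49.5% in cholinergic interneuron-like and 52% in microglia-like nuclei, and 62% to 85% in the other fits. False calls numbered 0 in the fits with 0% and 6 to 20 in the others. Alternatives were DESeq2 1.42.0, RLE factors, no filter, each library left out, other filters on nuclei, doublets kept, resolution 0.5, marker gating, sex as a covariate, joint adjustment and, chosen after seeing the data, single clusters and an edgeR fit over all classes. The members are named in every comparison, list genes only where called, and for each member the 3 genes of highest Pearson r with a top class mean of at least 10 CPM.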

Additional observations from a re-analysis of the deposited data

Results flagged for a closer look

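In 119 sets of libraries (a gene in a class with 4 to 6 libraries) the highest or lowest library was compared with its neighbours. By Dixon's criterion, set to flag about 1 in 20 independent samples of 1 normal distribution, 12 stood far from the rest. The sets share libraries and pool saline with naloxone, so that rate is no baseline for the 12 flagged libraries. Mgll in naloxone replicate 5 was one of them in Drd1-like (211 CPM, others 108 to 145), Drd2-like (184 CPM, others 122 to 140) and ependymal cell-like nuclei (127 CPM, others 66.1 to 76.7). That library was the highest for Mgll in 10 of 17 classes. It also stood out for Cnr1 in committed oligodendrocyte precursor-like (34.9 CPM, others 6.76 to 13.6), Faah in Drd2-like (28.4 CPM, others 18.8 to 21.7) and Napepld in Chst9 Grm8 spiny neuron-like nuclei (4.29 CPM, others 7.60 to 9.50).

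Naloxone replicate 6 was low for Cnr1 in astrocyte-like nuclei (57.5 CPM, others 87.3 to 101). Saline replicate 1 was low for Abhd6 in microglia-like (49.7 CPM, others 76.6 to 91.3) and for Faah in eccentric spiny neuron-like nuclei (15.1 CPM, others 20.9 to 22.4), and high for Napepld in ependymal cell-like nuclei (37.5 CPM, others 10.6 to 18.0). Saline replicate 2 was high for Dagla in Drd3 island neuron-like (34.7 CPM, others 22.4 to 26.9) and for Faah in Pthlh Pvalb interneuron-like nuclei (53.4 CPM, others 21.3 to 33.2).

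The naloxone response of Mgll differed between Drd2-like and Drd1-like spiny neurons by -0.27 on the log2 scale in a test of the difference itself, 1 of 21 such tests. Naloxone replicate 5 is high in both classes, and without it the difference was -0.21 (edgeR adjusted p = 0.281).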

How the results depend on the processing

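No paired analysis was possible because the saline and naloxone libraries share no replicate number. Of the results with a test across genes or classes, the count of members that differed by class after naloxone, 0, became 1 with DESeq2, 1 with no filter on low counts and 1 with sex as a covariate, each time Mgll in Drd1-like spiny neurons. The share of all genes called under these settings is not given here. The fit with sex as a covariate counts the female and male sums of a library as separate samples. Leaving out 1 library moved the count of differences between classes over 0 to 1. The edgeR fit over all classes gave 19 neighbour steps and 22 class pairs where the sign-flip test gave 0. The log2 difference of Cnr1 in eccentric spiny neuron-like nuclei reversed to 0.48 when nuclei were gated on markers, where 28.0% of nuclei lay near the margin, and the cause was not tested. Of the values for single genes under the alternatives, 489 kept their direction and side of the threshold or moved by less than the spread between libraries, and 14 did not. These include the 23 class pairs that were taken up for having 1 direction in all 6 libraries. For them, leaving out 1 library could change neither the direction nor the side of the threshold, so the count overstates stability. At resolution 0.5 the cluster of 1579 nuclei that scored highest for the microglia markers (led by Arhgap15, Inpp5d and Slco2b1) stayed unnamed by the naming rule and the eccentric class was not found, so that endothelial cell-like nuclei (27.3 CPM) were highest for Daglb, mural cell-like (75.4 CPM) for Dagla and Chst9 Grm8 spiny neuron-like nuclei (148 CPM) for Abhd6. Gating on markers changed the highest class of Dagla and Faah. Few UMIs limit mural cell-like, ependymal cell-like and committed oligodendrocyte precursor-like values. Among the flagged sets, Cnr1 in committed precursors had 31 UMIs in all, and Mgll and Napepld in ependymal cell-like nuclei 88 and 17.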

Other observations

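Outside the named classes, the highest Cnr1 level was in an unnamed cluster of 168 nuclei led by Dcdc1-ps1, with 243, 227 and 275 CPM after saline and 148, 175 and 301 CPM after naloxone (mean 228 ± 58.1, SD, n = 6 libraries). Its Mgll level was 70.3 ± 14.7 CPM and its Abhd6 level 118 ± 22.9 CPM. Another 2 unnamed clusters had 88.8 and 86.0 CPM of Cnr1. Glutamatergic neuron-like nuclei, with 138 nuclei in 5 libraries, had 52.3 ± 10.1 CPM of Faah (38.9 to 65.0 CPM), on 101 UMIs, and 41.4 ± 21.7 CPM of Cnr1, on 76 UMIs.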
